A study of Mus musculus with 15 samples.

Results

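The miR-130 family, which takes in miR-301, is a group of microRNAs (miRNAs, short RNAs that pair with messenger RNAs and lower their output) with a common seed. The seed is the stretch from base 2 to base 8 of the mature strand, counted from its 5′ end, and it makes the main contact with a target. The members were all mouse miRNAs on the array whose name is miR-130a, miR-130b, miR-301a or miR-301b with either arm of the hairpin, and the rule used no measured value. Of the 8 names this allows, 5 had probes, out of 696 mouse miRNAs on the array. They were mmu-miR-130a-3p, mmu-miR-130b-3p, mmu-miR-130b-5p, mmu-miR-301a-3p and mmu-miR-301b-3p. The other 3 names, all 5p arms, were not measured by this array design.

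The livers came from male mice of the strain labeled B6C57/J, which were 1 year old when the diets began and stayed on them for life. Mice on standard diet (SD, n = 5) ate AIN-93G, a purified rodent diet, without limit. Metformin-treated mice (Met, n = 5) ate the same diet without limit, with 0.1% w/w metformin, a glucose-lowering drug. Mice on caloric restriction (CR, n = 5) were given the AIN-93G diet at 40% restriction per the labels. The study asked whether the 2 interventions change liver miRNAs. One Agilent 1-color array was hybridized per mouse, with total RNA labeled with Cy3 at its 3′ end.

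A miRNA is cut from a hairpin precursor by the nuclease DICER1, and 1 of its arms, called 5p or 3p, is usually kept as the mature strand. The 3p arms of this family are known as its main mature strands. In other tissues miR-130a-3p is known for acting on regulators of blood vessel growth, of fat cell formation and of cholesterol export. RefSeq held the mature sequence of 4 of the 5 members (assembly GRCm38.p6), and mmu-miR-301b-3p is named here only. The sequences are shown because the shared seed defines the family, with bases 2 to 8 in capitals.
mmu-miR-130a-3p: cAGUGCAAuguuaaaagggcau
mmu-miR-130b-3p: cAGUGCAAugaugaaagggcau
mmu-miR-301a-3p: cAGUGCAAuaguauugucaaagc
mmu-miR-130b-5p: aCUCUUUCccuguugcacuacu
The 3 printed 3p strands had the same seed, and the 5p arm of miR-130b had another. The site in a target that would pair with the shared seed reads UUGCACU.

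miR-130a-3p and miR-130b-3p matched at 20 of 22 positions and differed by U11A and A13G, counted from the 5′ end with the base of miR-130a-3p first. miR-130a-3p and miR-301a-3p matched at 12 of 22 positions, and their first 9 bases were identical. Mature miR-130a-3p lies at chr2:84741116-84741137 on the minus strand of GRCm38.p6, and its gene Mir130a overlaps no other gene in the RefSeq table. miR-130b-3p lies at chr16:17124071-17124092 on the minus strand. Its gene Mir130b and its neighbor Mir301b both overlap the protein-coding gene 2610318N02Rik. miR-301a-3p lies at chr11:87113054-87113076 on the plus strand, and its gene, listed as Mir301, overlaps Ska2, which encodes a spindle and kinetochore protein. An array of mature miRNAs does not report on these host genes.

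Of 7 RefSeq mature miRNAs with this seed, 4 were on the array: the 3 members above and miR-721, which lies at chr5:136375777-136375797 on the minus strand, in Cux1. It is shown because it was the only other array miRNA found with the family's seed among the 542 matched to RefSeq by name.
mmu-miR-721: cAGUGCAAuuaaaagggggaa
miR-721 matched miR-130a-3p at 15 of 21 positions, with the first 9 bases identical.

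Each member had 20 spots per array, in 2 probes of 10 spots for miR-130a-3p, miR-130b-3p and miR-301a-3p and in 4 probes of 5 spots for miR-130b-5p and miR-301b-3p. The values are z-scores. For each spot the natural log of the median signal was set against the mean of its array and expressed in units of the array's standard deviation, and spots and then probes were averaged. This gives every array the same mean and spread. Per array, 151 to 205 miRNAs were detected by the software of the scanner. CR mice 2 and 3 stood apart, with 167 and 151 detected miRNAs and mean correlations of 0.942 and 0.935 with the other arrays over the tested miRNAs, against 0.967 to 0.982 for the other 13. Slide 1 held the 5 SD mice with Met mice 1 to 3, and slide 2 held the 5 CR mice with Met mice 4 and 5, so no slide held both CR and SD, and only the Met mice tie the 2 slides together in a fit with the slide as a block. With 5 arrays per diet, the number of arrays sets the precision.

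The tissue label was checked against lists of miRNAs chosen for liver and its cell types. All 3 hepatocyte miRNAs (miR-122-5p, miR-192-5p and miR-194-5p) were detected on all 15 arrays. miR-124-3p of neurons and miR-208a-3p of heart were detected on 0 arrays, and miR-1a-3p of muscle on 1, that of CR mouse 5.

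Only mmu-miR-130a-3p was detected. The software detected it on 15 of 15 arrays, and all 300 of its spots over the 15 arrays were well above background. mmu-miR-130b-3p, mmu-miR-130b-5p, mmu-miR-301a-3p and mmu-miR-301b-3p were each detected on 0 of 5 arrays in SD, CR and Met. Of 300 spots each, 1 was well above background for miR-130b-3p, 0 for miR-130b-5p, 5 for miR-301a-3p and 3 for miR-301b-3p. On every array the z-scores of these 4 members lay inside the range from the 2.5th to the 97.5th percentile of the negative control spots (400 to 433 spots per array), and those of miR-130a-3p lay outside it. The range is that of single control spots, while a member's z-score is a mean over its spots, so a weak signal could also lie inside it. These 4 members have only a bound on each array, and no fold change is given for them. They may still have been present below what the array detects.

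**Figure D1:**
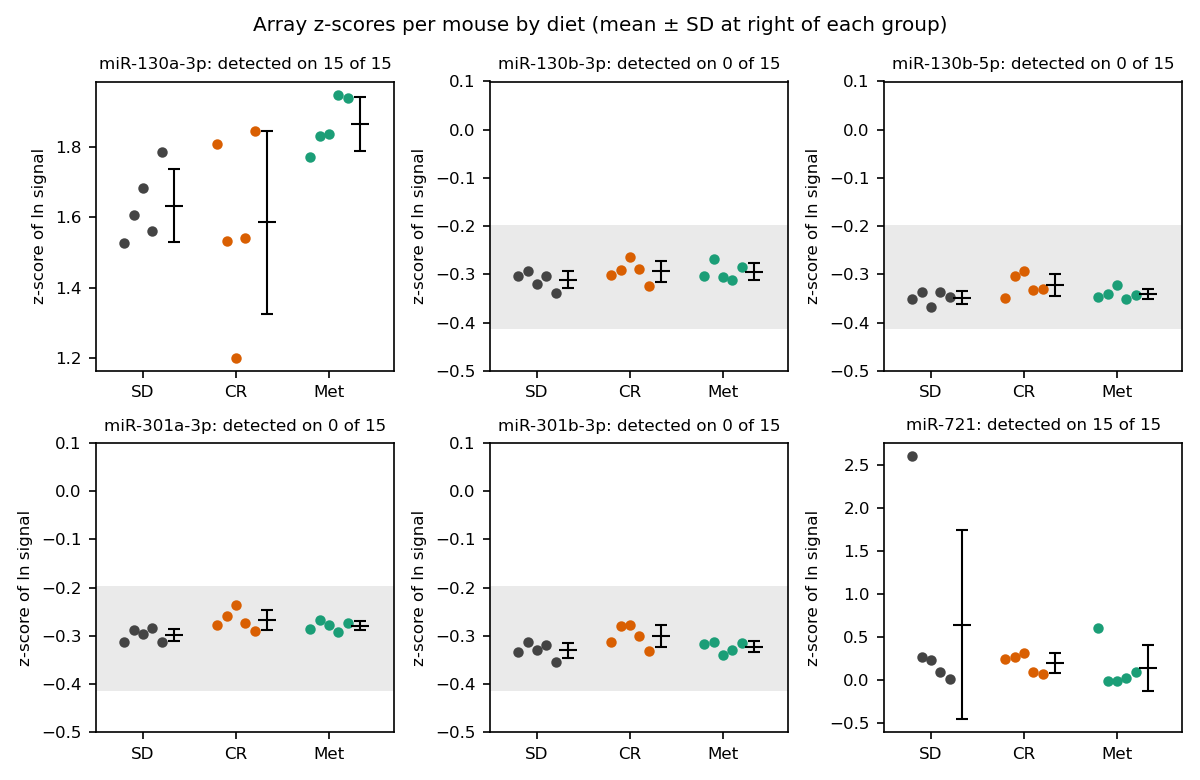
The vertical axes give the z-score of the ln signal, each panel on its own axis, and points are single mice in the order of their replicate numbers, with the mean ± SD at the right of each diet. Gray bands, drawn for the undetected members, span the median over arrays of the 2.5th and 97.5th percentiles of the negative control spots. miR-130a-3p lay between 1.20 and 1.95, the undetected members between -0.37 and -0.24, and miR-721 had 1 SD mouse at 2.60.

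For the undetected members the z-scores are given as a description of signals at or near the background, with no test. miR-130b-3p averaged -0.311 ± 0.0176 in SD, -0.294 ± 0.0214 in CR and -0.295 ± 0.0174 in Met (SD, n = 5). miR-130b-5p averaged -0.348 ± 0.0129, -0.322 ± 0.0227 and -0.34 ± 0.0111 in the same order. miR-301a-3p averaged -0.298 ± 0.0129, -0.267 ± 0.021 and -0.279 ± 0.00961, and miR-301b-3p averaged -0.33 ± 0.0156, -0.3 ± 0.0225 and -0.323 ± 0.0116. The ranges of the 3 diets overlapped for miR-130b-3p, miR-130b-5p and miR-301b-3p. For miR-301a-3p they overlapped between each pair of diets as well, the highest SD mouse being at -0.28 and the lowest Met mouse at -0.29. In CR mouse 3, which stood apart, each of the 4 had its highest z-score of all 15 mice. The negative control spots also had their highest median z-score on that array, at -0.248, the lowest median being -0.335 in SD mouse 5. After background subtraction, the signals of the 4 members lay between -3.17 and 4.92 units over all arrays. Those of miR-301a-3p were positive on all 15 arrays, between 0.784 and 4.92, and the negative values came from the other members. miR-301a-3p averaged 2.25 ± 0.917 units in SD, 2.25 ± 1.24 in CR and 4.1 ± 0.592 in Met (SD, n = 5). The highest SD mouse, at 3.49, was above the lowest Met mouse, at 3.39.

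miR-130a-3p was highest in Met, and the only comparison in which it met the criteria was CR against Met, where it was lower in CR. Its z-scores were 1.53, 1.61, 1.68, 1.56 and 1.79 in SD mice 1 to 5. They were 1.81, 1.53, 1.20, 1.54 and 1.84 in CR mice and 1.77, 1.83, 1.84, 1.95 and 1.94 in Met mice. The highest SD mouse was above the lowest Met mouse, CR held both lower and higher mice than SD, and the spread in CR was the widest of the 3 diets. The means were 1.63 ± 0.104 in SD, 1.59 ± 0.259 in CR and 1.86 ± 0.0756 in Met (SD, n = 5).

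On the linear scale of the scanner, without scaling between arrays, the total signal of miR-130a-3p was 451.1, 457.6, 581.0, 458.0 and 598.4 units in SD mice 1 to 5. It was 591.4, 370.7, 242.1, 408.6 and 636.9 in CR mice, and 599.0, 605.1, 608.6, 701.9 and 722.4 in Met mice. Every Met mouse was above every SD mouse on this scale, although Met mouse 1 and SD mouse 5 were nearly level. CR mouse 3 was the lowest of all 15 mice. The 2 highest, Met mice 4 and 5, were on slide 2, and the other Met mice were on slide 1 with SD.

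The tests were made with limma on the z-scores of 178 miRNAs, each detected in every mouse of 1 or more diets, in 1 fit over all 15 arrays. A miRNA met the criteria with a p of 0.05 or less, a Benjamini-Hochberg adjusted p of 0.3 or less over the 178 miRNAs, and a Z ratio of at least 1.5 in size. The Z ratio sets the difference of the mean z-scores of 2 diets against the standard deviation of such differences, taken over all 696 miRNAs. This divisor was 0.0609 for Met against SD, 0.166 for CR against SD and 0.155 for CR against Met, so a given difference has a larger Z ratio between Met and SD.

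Between Met and SD, miR-130a-3p differed by 0.23 ± 0.11 in z-score (SE), higher in Met, with a Z ratio of 3.80. The limma p was 0.0514 and the adjusted p was 0.673, so the difference did not meet the criteria. Its 95% confidence interval ran from -0.0016 to 0.465. The background was 2 of 178 miRNAs meeting the criteria, or 1.12%, both lower in Met, but the split depended on the processing, with 3 higher and 3 lower for background-subtracted signals, 1 higher and 3 lower in a fit of only SD and Met, and 6 higher and 3 lower without SD mouse 5. miR-130a-3p had the second largest positive difference among the 178 miRNAs and was 13th in order of p.

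The call between Met and SD depended on the test. With the pairwise test of z-scores that the methods of the study name, which uses the spread of the 2 diets compared, miR-130a-3p met the criteria, with an adjusted p of 0.00246. In the form set up here, that test takes p from the normal distribution and makes no allowance for the small number of mice. That test called 7.3% of the 178 miRNAs for Met against SD, 9 higher and 4 lower in Met, 15.2% for CR against SD and 20.2% for CR against Met. With a limma fit of only SD and Met, which leaves out the wide spread in CR, its adjusted p was 0.148 and it met the criteria, as did 2.25% of the miRNAs. On the arrays of slide 1 alone, which held 3 Met and 5 SD mice, the difference was 0.18. Its limma p was 0.0436 and its adjusted limma p 0.975. With the slide as a block the difference was also 0.18, with a limma p of 0.187 and an adjusted limma p of 0.992.

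Between CR and SD, miR-130a-3p differed by -0.05 ± 0.11 in z-score (SE), with a Z ratio of -0.284 and an adjusted limma p of 0.778, and did not meet the criteria. The 95% confidence interval ran from -0.281 to 0.186. Here 31 of 178 miRNAs met the criteria, or 17.4%, with 5 higher and 26 lower in CR. Without CR mouse 3, the Z ratio of miR-130a-3p turned to 0.341, and without CR mice 2 and 3 it was 0.854, with adjusted limma p-values of 0.757 and 0.474. With the slide as a block it was -0.99, with an adjusted limma p of 0.609.

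Between CR and Met, miR-130a-3p differed by -0.28 ± 0.11 in z-score (SE), lower in CR, with a Z ratio of -1.80. The limma p was 0.0222 and the adjusted p was 0.0617, so the difference met the criteria, as it did for 37 of 178 miRNAs, or 20.8%, with 8 higher and 29 lower in CR. The ranges overlapped, since CR mice 1 and 5, at 1.81 and 1.84, lay among the Met mice and CR mice 2, 3 and 4 below them. Without CR mouse 3 the Z ratio was -1.44 and the adjusted limma p 0.144, and the criteria were not met. Nor were they without CR mice 2 and 3, with a Z ratio of -1.41 and an adjusted limma p of 0.377. On slide 2 alone, with 5 CR and 2 Met mice, the difference was -0.36, with an adjusted limma p of 0.24, and was not called, while with the slide as a block over all arrays the adjusted limma p was 0.094 and the criteria were met.

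**Figure D2:**
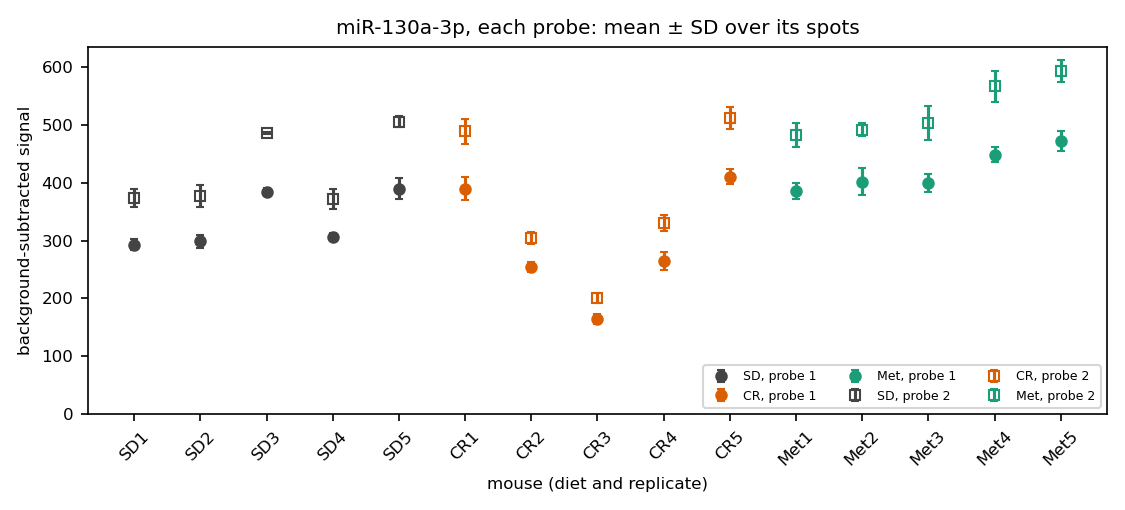
The vertical axis gives the background-subtracted signal of the 2 miR-130a-3p probes on a linear scale from 0, and the horizontal axis gives the 15 mice by diet, with points as means and bars as the SD over the 10 spots of a probe less outlier spots. Both probes were lowest in CR mouse 3 and highest in Met mouse 5.

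Both probes of miR-130a-3p gave the same picture, and the spread between mice was larger than the spread between spots. Met and SD differed by 0.234 in z-score for the first probe and by 0.229 for the second. CR and SD differed by -0.0342 and -0.0604, and CR and Met by -0.268 and -0.29. The coefficient of variation over the spots of a probe on an array had a median of 3.64% for the first probe and 4.15% for the second, and its highest value was 5.95%. In z-score the median SD over spots was 0.0445 and 0.0471 for the 2 probes, against SDs over mice of 0.0756 to 0.259 for the 3 diets.

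The signal before any scaling between arrays was tested by two-sided exact permutation of the diets among the 10 mice compared, where the smallest possible p is 0.00794, and p-values were adjusted over 6 tests. The background-subtracted log2 signal averaged 8.552 ± 0.215 in SD, 8.296 ± 0.547 in CR and 8.887 ± 0.128 in Met (SD, n = 5). Met was 1.26 times SD (exact p = 0.0397, adjusted 0.0952). CR was 0.838 times SD (exact p = 0.381, adjusted 0.405), and CR was 0.664 times Met (exact p = 0.0635, adjusted 0.0952). Without background subtraction these ratios were 1.21, 0.893 and 0.737, with exact permutation p-values of 0.0238, 0.405 and 0.0556. On slide 1 alone the background-subtracted ratio of Met to SD was 1.18, with an exact p of 0.107 over 56 divisions, the smallest possible being 0.0179. None of the 6 tests reached an adjusted p of 0.05. Signals that are not scaled also hold any difference in the brightness of whole arrays. The mean ln signal per array was 4.89 to 4.97 in SD, 4.91 to 4.96 in CR and 4.96 to 5.0 in Met. Its part in these ratios was not tested.

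The direction in CR turned with the scaling between arrays. When arrays were scaled to their 75th percentile over detected probes, and not by z-scores, the log2 signal of miR-130a-3p was 0.36 higher in CR than in SD, with an adjusted limma p of 0.016, and its Z ratio of 0.973 was under the limit. This scaling moved the median difference of all tested miRNAs to 0.309 for CR against SD and to 0.192 for CR against Met, so that miR-130a-3p lay little above the median between CR and SD. Its own difference between CR and Met was then 0.00211, below the median, with an adjusted limma p of 0.99. With quantile normalization it met the criteria as higher in CR than in SD (Z ratio 2.01, adjusted limma p 0.0151), and its Z ratio between CR and Met was 0.477. The split of the calls between CR and SD turned from 5 higher and 26 lower to 43 higher and 24 lower with the 75th percentile of detected probes. The split for CR and Met turned from 8 higher and 29 lower to 45 higher and 31 lower. The difference between Met and SD was positive under every scaling tried, with a Z ratio as low as 0.461 with the 75th percentile of all probes.

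**Figure D3:**
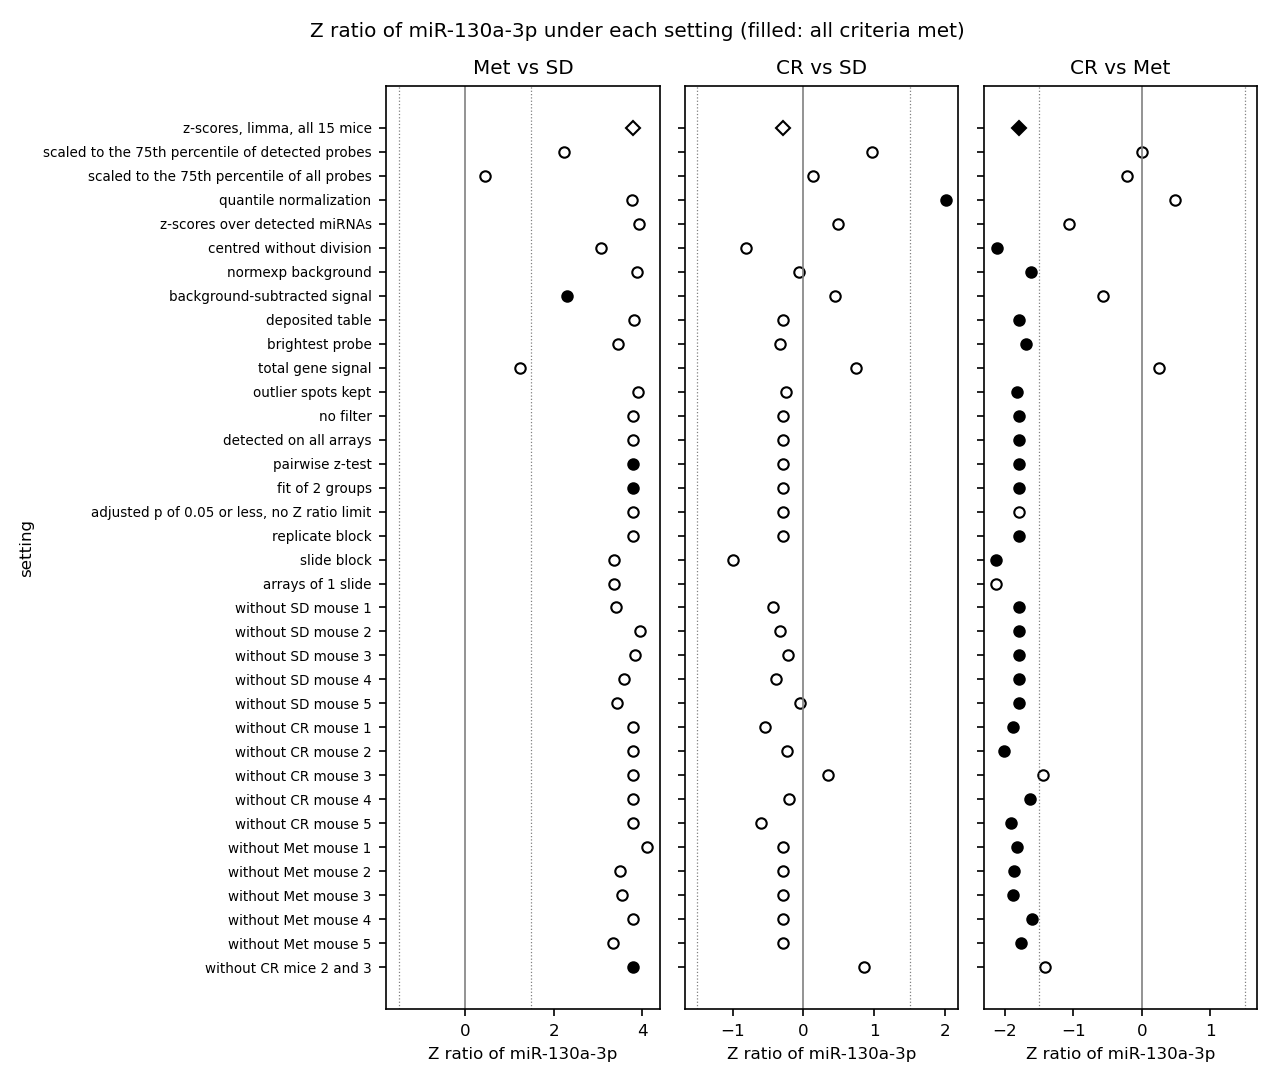
The horizontal axes give the Z ratio of miR-130a-3p in the 3 comparisons, each with its own range, and each row is 1 way of processing or 1 set of mice left out. Filled points met all criteria, the diamond is the value by z-scores and limma, and dotted lines mark the limit of 1.5 in either direction. The Z ratio stayed positive for Met against SD, took either sign for CR against SD, and ran from -2.13 to 0.477 for CR against Met.

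Liver RNA was measured in bulk, so fewer cells of a type and less RNA per cell cannot be told apart. The mean z-score of the 3 hepatocyte miRNAs lay between 3.66 and 4.05 in SD, 2.95 and 3.93 in CR and 3.96 and 4.065 in Met, and 2 of the 3, miR-192-5p and miR-194-5p, met the criteria as lower in CR than in SD and in Met. The third, miR-122-5p, had mean z-scores of 6.07 in SD, 6.29 in CR and 6.32 in Met and met the criteria in no comparison. The mean of the 2 endothelial miRNAs lay between 0.893 and 1.096 in SD, 0.409 and 1.04 in CR and 0.918 and 1.05 in Met, with 1 of 2, miR-126-3p, meeting the criteria between CR and Met. The mean of the 2 erythroid miRNAs on the array lay between 0.421 and 0.891 in SD, -0.112 and 0.932 in CR and 0.433 and 0.804 in Met, with CR mice 2 and 3 lowest. The mean of the 5 mesenchymal miRNAs lay between -0.046 and -0.0008 in SD and -0.038 and 0.033 in Met. In CR it lay between -0.112 and 0.149, highest in CR mouse 5. Of the 5 mesenchymal, the 5 leukocyte and the 2 erythroid miRNAs on the array, none met the criteria in any comparison, with 5, 3 and 1 of them tested. The part of these cell types in the values of miR-130a-3p was not tested.

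miR-721 carries the family's seed and was detected on 15 of 15 arrays. Its z-scores were 2.60, 0.28, 0.24, 0.10 and 0.02 in SD mice 1 to 5, 0.25, 0.28, 0.32, 0.09 and 0.07 in CR mice, and 0.61, -0.01, -0.01, 0.02 and 0.10 in Met mice. SD mouse 1 was far above all others, with a total signal of 1201 units against 39.1 to 156.7 in the other 14 mice, and all 4 probes showed this. Between Met and SD the Z ratio was -8.28, with an adjusted limma p of 0.930, and without SD mouse 1 it was -0.255. Between CR and SD it was -2.68 with an adjusted limma p of 0.370, and 0.254 without that mouse. For CR against Met it was 0.377, with an adjusted limma p of 0.900, and miR-721 met the criteria in none of the 3 comparisons.

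The seeds of 6 other array miRNAs held 6 of the family's 7 seed bases in a row. They are miR-148a-3p, miR-148b-3p and miR-152-3p, which share AGUGCA 1 base further in, miR-291b-3p with the same shared bases, and miR-19a-3p and miR-19b-3p, which share GUGCAA. The tested ones with the largest shifts are shown with the shared bases in capitals.
mmu-miR-130a-3p: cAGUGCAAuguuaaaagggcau
mmu-miR-148a-3p: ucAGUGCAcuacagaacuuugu
mmu-miR-152-3p: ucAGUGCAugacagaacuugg
mmu-miR-19b-3p: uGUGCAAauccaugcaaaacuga
miR-148a-3p and miR-148b-3p were detected on 15 arrays, miR-19b-3p on 14, miR-152-3p on 13, miR-19a-3p on 6 and miR-291b-3p on 0. The arrays that detected miR-19a-3p were those of 4 of 5 SD mice, 0 of 5 CR mice and 2 of 5 Met mice, a difference that was not tested. With most spots required to be well above background, miR-148b-3p was detected on 0 SD, 0 CR and 1 Met array. miR-19a-3p was then detected on 0 arrays in each diet. miR-152-3p was detected on 5, 2 and 5 arrays and miR-19b-3p on 5, 3 and 5, in the same order. miR-148b-3p lay near the background, with z-scores of -0.16 to -0.12 in SD, -0.167 to -0.137 in CR and -0.165 to -0.102 in Met, and the 3 ranges overlapped.

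With miR-721, 5 miRNAs with the same or an overlapping seed were tested. Between CR and SD, 2 of 5 met the criteria as lower in CR and 0 as higher, against 26 lower and 5 higher of all 178 (17.4% called), and with the slide as a block neither of the 2 did. The median difference of the 5 was -0.446 in z-score, against -0.0161 over all 178 miRNAs. It is the value of miR-721 itself, and without SD mouse 1 the median was -0.178, against -0.0196 over all 178. For CR against Met it was also 2 lower and 0 higher, against 29 lower and 8 higher of all 178 (20.8% called), with medians of -0.208 and -0.0292, and on the arrays of slide 2 alone neither of the 2 met the criteria. Between Met and SD none met the criteria, with medians of -0.00747 and 0.00838. With limma, 12 of the 178 miRNAs had an unadjusted p of 0.05 or less between Met and SD.

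miR-148a-3p, known as an abundant miRNA of hepatocytes, had z-scores of 1.79 to 2.04 in SD, with a median of 1.82. They were 1.73, 0.46, 0.27, 1.28 and 1.64 in CR mice 1 to 5, and 1.81, 1.87, 1.93, 1.77 and 2.04 in Met mice. Every CR mouse was below every SD and Met mouse, with CR mice 2 and 3 lowest. Its Z ratio was -4.89 between CR and SD, with an adjusted limma p of 0.0196, and -5.19 between CR and Met, with an adjusted limma p of 0.0262. Without CR mice 2 and 3 the Z ratios were -2.93 and -3.49 and the criteria were still met, while with the slide as a block the adjusted limma p between CR and SD was 0.257 at an unadjusted p of 0.0607, and they were not. Both calls were also lost with scaling to the 75th percentile over all probes, with Z ratios of -1.29 and -1.39, and on the arrays of slide 2 alone that between CR and Met was lost, with an adjusted limma p of 0.228.

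miR-19b-3p, a member of the miR-17-92 cluster known for its role in cell growth, had z-scores of 0.73, 0.83, 0.83, 0.78 and 0.72 in SD. They were 0.67, -0.12, -0.14, 0.42 and 0.61 in CR and 0.70, 0.75, 0.78, 0.60 and 0.86 in Met. Every CR mouse was below every SD mouse, and the ranges of CR and Met overlapped. For this miRNA the Z ratio was -2.94 between CR and SD, with an adjusted limma p of 0.0191, and -2.90 between CR and Met, with an adjusted limma p of 0.0262. Without CR mice 2 and 3 these were -1.82 and -1.81 and the criteria were still met. With the slide as a block the call between CR and SD was lost, with an adjusted limma p of 0.257, and on the arrays of slide 2 alone the call between CR and Met was lost, with an adjusted limma p of 0.246.

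miR-152-3p had z-scores of 0.01 to 0.12 in SD, -0.25 to 0.00 in CR and 0.05 to 0.14 in Met. It was detected in 3 of 5 CR mice, and CR mice 2 and 3 were those without detection. The differences had adjusted limma p-values of 0.0154 against SD and 0.0102 against Met, and the Z ratios of -1.02 and -1.34 were under the limit of 1.5 in size. Without CR mice 2 and 3 these Z ratios were -0.831 and -1.43. With the slide as a block, the adjusted limma p was 0.218 against SD and 0.034 against Met. On the arrays of slide 2 alone, miR-152-3p had an adjusted limma p of 0.201 against Met. Its values depended on the processing, and the criteria were met in both comparisons with scaling to the 75th percentile over detected probes (-2.67 and -3.37), with background-subtracted signals (-3.02 and -3.72) and with total gene signals (-3.49 and -3.91). Unlike the direction of miR-130a-3p in CR, the directions of miR-148a-3p, miR-19b-3p and miR-152-3p against SD and Met were the same under all scalings tried. Whether they differed from miR-130a-3p in their response was not tested.

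**Figure D4:**
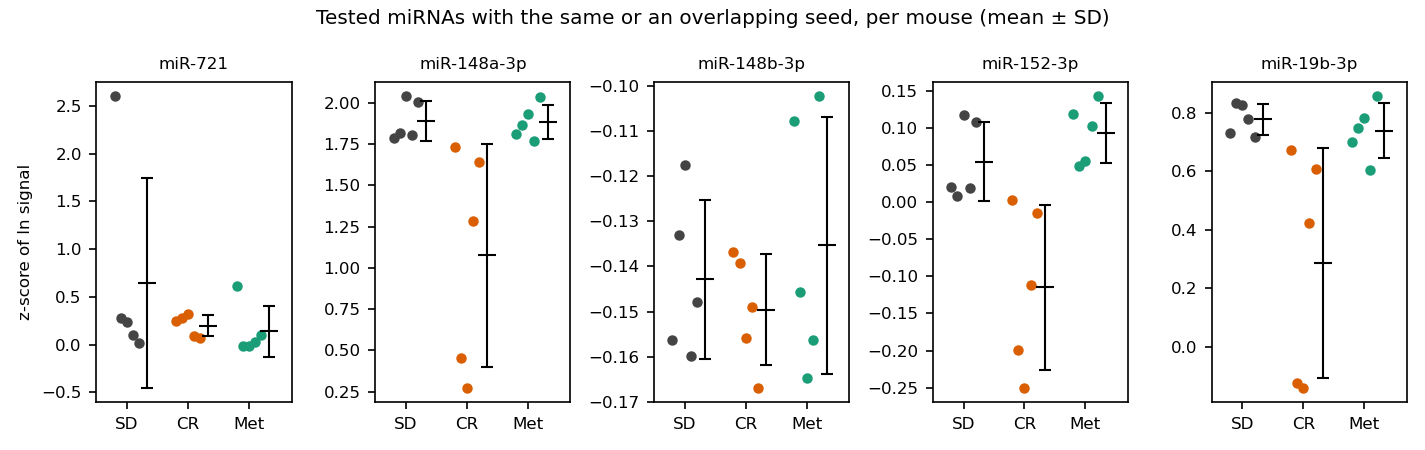
The vertical axes give the z-score of the ln signal of the 5 tested miRNAs with the same or an overlapping seed, each panel on its own axis, with points as single mice and the mean ± SD at the right of each diet. In CR, mice 2 and 3 were the lowest 2 of 5 for miR-148a-3p, miR-152-3p and miR-19b-3p, and miR-721 was set apart by SD mouse 1.

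By Pearson r over the 15 arrays, the tested miRNAs whose z-scores followed those of miR-130a-3p most closely were miR-26a-5p (Pearson r = 0.967, Spearman rho = 0.975), miR-24-3p (0.937 and 0.900) and miR-23b-3p (0.916 and 0.811). The order depended on the measure, since by Spearman rho miR-23a-3p (0.929) and miR-27a-3p (0.918) were above miR-24-3p and miR-23b-3p, and both were named after their values were seen. The median Pearson r over the 177 other tested miRNAs was 0.35. The arrays share their scaling, and the 3 miRNAs were picked from these same values, so r is a description with no test. Within the diets, with each diet's mean removed, r was 0.958 for miR-26a-5p, 0.963 for miR-24-3p and 0.922 for miR-23b-3p. Without CR mouse 3 and SD mouse 1, the mice farthest from the median of miR-130a-3p, it was 0.956, 0.877 and 0.835, with miR-27a-3p at 0.888 and miR-23a-3p at 0.886. miR-26a-5p averaged 2.58 ± 0.128 in SD, 2.54 ± 0.255 in CR and 2.77 ± 0.0725 in Met (SD, n = 5), and CR mouse 3 was its lowest mouse as well.

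The lowest r with miR-130a-3p was that of the array entry miR-2141_v15.0, at -0.853, with a Spearman rho of -0.782. Its z-scores averaged 4.51 ± 0.156 in SD, 4.82 ± 0.34 in CR and 4.35 ± 0.184 in Met (SD, n = 5), and CR mouse 3 was its highest mouse. This relation depended on the scaling, since r was 0.111 after scaling to the 75th percentile over detected probes. Under that scaling r with miR-130a-3p was 0.941 for miR-26a-5p, 0.862 for miR-24-3p and 0.821 for miR-23b-3p.

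**Figure D5:**
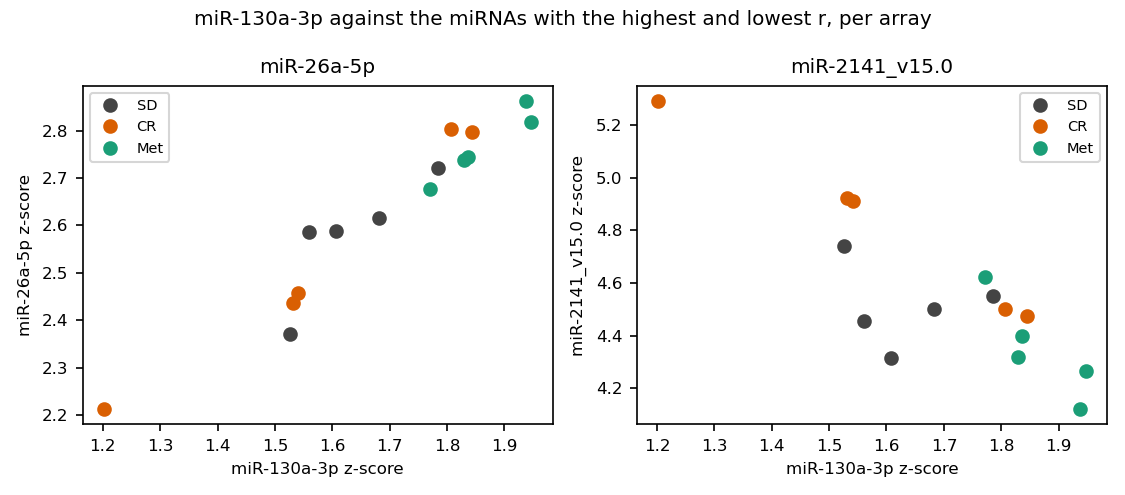
Each point is 1 array, placed by the z-score of miR-130a-3p on the horizontal axis and by that of miR-26a-5p (left) or the entry miR-2141_v15.0 (right) on the vertical axis. CR mouse 3, at 1.20 for miR-130a-3p, was the lowest point for miR-26a-5p and the highest for miR-2141_v15.0.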

How the data were processed

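The authors deposited the scanner output of 15 arrays (Agilent Feature Extraction 11.5.1.1, array annotation build mm9), with spot and background intensity on a linear scale and with 0 or 1 flags for detection, and a table with a score per spot. The deposited scores equaled z-scores of the ln median signal over all spots, background not subtracted, within 0.0005. The same z-scores were computed here from the intensities, without outlier spots. limma 3.58.1 in R 4.3.3 was run over 178 of 696 miRNAs with variances that follow the mean, and was tested on simulated data. Python 3.11.15 did the rest (matplotlib 3.10.9, scipy 1.17.1, pandas 2.3.3 and numpy 2.4.6). The labels name mice separately by number, and p-values measure the spread between these mice. The methods give the limits for a pairwise test of z-scores, and a form of that test set up here was an alternative.

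Members, lists and rules were chosen with earlier results of these data known. Named were all members, array miRNAs with the same seed or 6 of its bases in a row, the 3 most and the 1 least correlated with miR-130a-3p, and marker lists. By name, 542 array miRNAs matched RefSeq sequences. The normexp alternative used an offset of 50, and subtracted signals a floor of 0.01 after scaling. RT-qPCR and primary miRNA levels were not analysed here.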

Additional observations from a re-analysis of the deposited data

Results flagged for a closer look

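miR-721 reached 2.602 in z-score in SD mouse 1, and the gap to the next SD mouse was 0.9 of the range of the group. In Met, mouse 1 had the highest z-score of miR-721, 0.61, with a gap of 0.815 of the range. Both mice were numbered 1 in the labels and both arrays were on slide 1. Of groups of 5 mice without any true outlier, about 1 in 20 would pass the limit used for this flag. The share of such groups with gaps as large as these was not computed.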

How the results depend on the processing

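The difference of miR-130a-3p between Met and SD kept its direction in every alternative, with Z ratios of 3.34 to 4.11 when single mice were left out. It met the criteria with background-subtracted signals (2.30), the pairwise test of z-scores, a fit of 2 groups and, chosen after seeing the data, without CR mice 2 and 3 (3.80 in each). Between CR and SD its Z ratio turned positive with scaling to the 75th percentile (0.973 over detected probes, 0.141 over all), quantile normalization (2.01), z-scores of detected miRNAs only (0.483), background-subtracted signals (0.450), total gene signals (0.744) and without CR mice 2 and 3 (0.854), and ran from -0.593 to 0.341 with single mice left out. Between CR and Met it turned with the 75th percentile of detected probes (0.006), quantile normalization (0.477) and total gene signals (0.252). It no longer met the criteria with the 75th percentile of all probes (-0.224), z-scores of detected miRNAs only (-1.06), background-subtracted signals (-0.561), an adjusted p limit of 0.05 (-1.80, adjusted limma p 0.0617), the arrays of 1 slide (-2.13) or without CR mice 2 and 3 (-1.41), and ran from -2.01 to -1.44 with single mice left out, the call being lost only without CR mouse 3. The cause was not tested.

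miR-721 between CR and SD ran from -3.53 to 0.254 with single mice left out, turning without SD mouse 1, and turned to -0.0569 between CR and Met without CR mice 2 and 3. The 5 members' detection was the same by the spots' flags.

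The count of miRNAs meeting the criteria between Met and SD, 2 by z-scores, was 0 with either 75th percentile, z-scores of detected miRNAs only, total gene signals, the slide block or 1 slide, 1 with quantile normalization, no filter, or an adjusted p limit of 0.05, 4 with a fit of 2 groups, 5 without CR mice 2 and 3, 6 with background-subtracted signals, 13 with the pairwise test, and 1 to 9 with single mice left out (9 without SD mouse 5, 1 without SD mouse 2, 3 or 4 or Met mouse 4 or 5). Between CR and SD, 31 became 67 with detected and 11 with all probes, 57 with background-subtracted signals, 64 with total gene signals, 55 with an adjusted p limit of 0.05 and 17 with the slide block. Between CR and Met, 37 became 76, 10, 70, 80 and 61 in the same order, 12 on 1 slide and 18 without CR mice 2 and 3. The higher and lower calls between CR and SD (5 and 26) were 25 and 17 with quantile normalization, 17 and 21 with z-scores of detected miRNAs only, 24 and 33 with background-subtracted and 36 and 28 with total gene signals, and 0 of 11 or of 27 were higher with all probes or centering alone. Between CR and Met (8 and 29) they were 22 and 26, 18 and 22, 33 and 37, 53 and 27, 0 of 10 and 1 of 32. Total gene signals moved the median difference of CR to 0.279 from SD and 0.253 from Met.

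The values did not show a pairing of the mice by replicate number. Of 15 same-numbered pairs, 4 deviated together with r over 0.1, with r from -0.562 to 0.714 over the pairs. In 5 of 30 comparisons the own number was best. A pairing that leaves no mark on these values cannot be seen this way. With the replicate number as a block, the Z ratios of miR-130a-3p were 3.80, -0.284 and -1.80 and the counts 2, 32 and 37 for Met against SD, CR against SD and CR against Met. No call of miR-130a-3p changed. For the 4 undetected members, signals at or near background limit what can be seen.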
